A study of Mus musculus with 2 samples.

Results

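Ly6 genes encode small cell-surface proteins held in the membrane by a glycosylphosphatidylinositol (GPI) lipid anchor. Of 6 Ly6 genes chosen by name for what earlier readings of these arrays had shown, Ly6c1, Ly6c2, Ly6a, Ly6e, Ly6d and Ly6k, 5 had a probe set named for them in the platform annotation, among 19505 genes in all. Ly6a was not analysed here. Because the genes were chosen with their values known, the values below are a description, with no test. The arrays measured RNA, not protein on the cell surface.

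The study compared mouse CD8 T cells polarized in culture as Tc1 or Tc9 cells, and its stated interest was in genes expressed more highly in Tc9 cells. Tc1 cells are known for interferon gamma and Tc9 cells for interleukin 9. CD8 T cells of spleen and lymph node were stimulated through CD3 and CD28 and polarized for 3 days, then kept for 2 days in medium with 10 ng/mL recombinant human IL-2. The Tc1 polarizing medium held 10 ng/mL of the same IL-2, while that of Tc9 cells was given IL-4 at 10 ng/mL, TGF-beta at 1 ng/mL and, at 20 µg/mL, the anti-interferon gamma antibody XMG1.2. Both were collected on day 5, with 1 array per group. The labels used here do not give the mouse strain, age or number of animals, nor whether the Tc9 polarizing medium also held IL-2. No value below has a replicate check.

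The Ly6/uPAR family shares a disulfide-bonded extracellular domain, and many of its mouse genes lie in 1 cluster on chromosome 15. Ly6C, the product of Ly6c1 and Ly6c2, is a classical surface marker of CD8 T cells with effector or memory state, inflammatory monocytes and plasma cells, and interferons raise it on T cells. Ly6e is also interferon-inducible, Ly6d is best known as a marker of B lineage commitment, and Ly6k is known from the testis, where it is needed for sperm function.

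Ly6c1 and Ly6c2 are closely related neighbours, and the bases before their start sites show this. The RefSeq promoter table (GRCm38.p6) held windows for these 2 of the members, with 2 start sites for each gene. Shown are the 250 bases before the start site that lies farthest upstream, 5′ to 3′ on the minus strand, at chr15:75048838-75049087 for Ly6c1 and chr15:75111972-75112221 for Ly6c2. Capitals mark aligned runs of at least 10 bases that are the same in both genes.
Ly6c1: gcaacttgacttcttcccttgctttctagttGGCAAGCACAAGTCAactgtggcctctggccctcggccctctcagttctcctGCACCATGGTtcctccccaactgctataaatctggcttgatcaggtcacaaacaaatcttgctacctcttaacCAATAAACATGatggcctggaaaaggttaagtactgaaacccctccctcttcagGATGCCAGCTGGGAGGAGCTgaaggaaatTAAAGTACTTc
Ly6c2: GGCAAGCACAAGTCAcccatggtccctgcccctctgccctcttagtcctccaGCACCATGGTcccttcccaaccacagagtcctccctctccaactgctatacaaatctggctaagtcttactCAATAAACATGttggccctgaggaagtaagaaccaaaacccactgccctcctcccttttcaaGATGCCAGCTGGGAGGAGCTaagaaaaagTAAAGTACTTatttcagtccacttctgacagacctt

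Of 216 aligned base pairs, 164 (75.9%) were identical, and 5 runs held 66 of them, the longest with 20 bases. These values depend on the alignment used, and shared stretches that it did not line up stay in lower case. The 250 upstream bases of each of the 4 windows were searched on both strands for sequences linked to the factors of these cultures. An interferon-stimulated response element (GAAA, any 2 bases, GAAA) matched in none of them and in 2.98% of all 32851 windows in the table. A gamma-activated site (TTCNNNGAA) matched in none of them and in 7.02% of all windows, and the STAT6-type form of it, with 4 bases between TTC and GAA, in none and in 5.85%. A T-box site (AGGTGTGA) matched in none and in 1.12%. This says only that these letters are not in these windows.

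The signature genes of the cultures differed in the direction of their labels. Il9 had intensities of 28.2 (Tc1) and 351 (Tc9), and Ifng of 622 and 190, so each signature cytokine was brighter in its own culture. Tbx21, the T-bet factor of the type 1 program, had 753 and 90.7, and Eomes, its relative, 593 and 284. All 8 measured CD8 T cell markers were above the detection threshold on both arrays and within 2-fold, with Cd8a at 4680 and 3906 and Cd3e at 7762 and 7153. Most detectable genes were within 2-fold too, as only 2.79% were lower and 2.62% higher by that much in Tc9 cells. The threshold was an intensity of 86.3, a log2 signal of 6.43, which is the median over every gene value of both arrays. Of 5222 control probe sets with neg in their ID, 89.9% (Tc1) and 91.7% (Tc9) lay below it.

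All 5 measured Ly6 genes had lower signals in Tc9 than in Tc1 cells, and all 5 reached the threshold on both arrays. Of these, 4 were lower by 2-fold or more, and Ly6e was not. Of the 10147 detectable genes, a share of 2.79% was lower by 2-fold or more in Tc9 cells and 2.62% was higher by as much. Nothing is read from the members' count beside that share, since this contrast was known when they were chosen. The median difference of the 5 genes, log2 Tc9 minus log2 Tc1, was -2.22, and over all detectable genes it was 0.05. In RNA from whole cultures, fewer cells that express a gene and less of its RNA per cell cannot be told apart.

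The Ly6C genes had the largest differences. Ly6c1 had intensities of 2735 (Tc1) and 224 (Tc9), a 12.2-fold lower signal. Ly6c2 had 1853 and 128, a 14.5-fold lower signal. On the Tc9 array both were still above the threshold, so neither fold is a bound. Among the 10147 detectable genes, ordered from the lowest difference, Ly6c2 stood at rank 6 and Ly6c1 at rank 11. The folds differed from each other by 1.19-fold. The genes are near copies of each other and the probe sequences were not used here, so the signal of one probe set may include RNA of the other gene.

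Ly6e, a thymocyte and T cell antigen also called TSA-1, had the smallest difference. Its intensities were 8817 (Tc1) and 5228 (Tc9), which is 1.69-fold lower in Tc9 cells and ranked 465. Its signal was far above the threshold in both cultures. Ly6e is among the 6.78% of all detectable genes that were lower in Tc9 cells by 1.5-fold or more.

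Ly6d and Ly6k are not usual markers of effector T cells, yet both were above the threshold. Ly6d had intensities of 403 (Tc1) and 86.6 (Tc9), a 4.66-fold lower signal that ranked 55. Its Tc9 value lies just above the threshold of 86.3, and with the threshold at the 95th percentile of the negative controls the fold is only a bound, at least 2.82-fold lower. Ly6k had 291 and 111, a 2.62-fold lower signal that ranked 157.

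**Figure D1:**
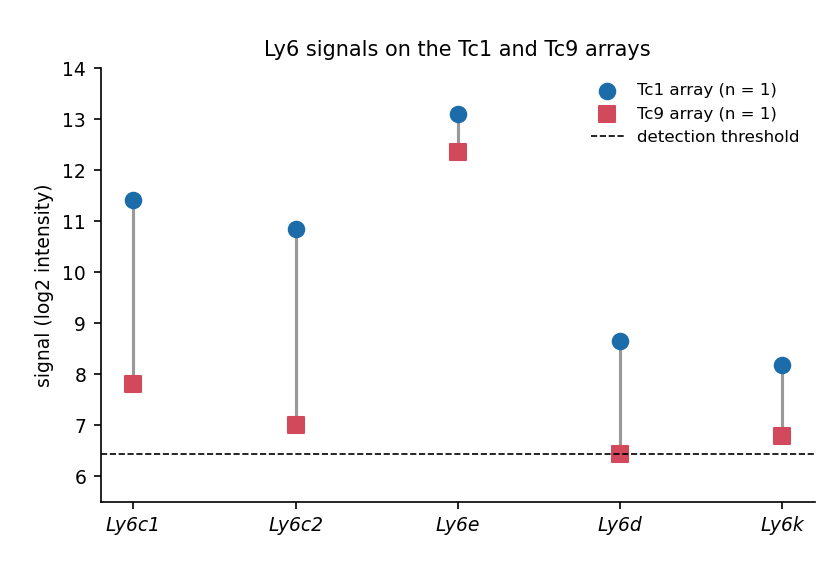
Signal (log2 intensity) of each measured Ly6 gene for Tc1 (circles) and Tc9 (squares), 1 array each, with the detection threshold of 6.43 dashed. The square lies below the circle for all 5 genes, by 3.86 for Ly6c2 and by 0.75 for Ly6e, and the Tc9 value of Ly6d lies on the threshold line.

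Control probe sets give a scale for these sizes. Among the negative controls, 585 reached the threshold, and of these 73 (12.5%) were lower on the Tc9 array by 2-fold or more and 22 were higher, with differences between -2.42 and 1.61. The differences of Ly6c1 (-3.61) and Ly6c2 (-3.86) lay below the lowest of these. The differences of Ly6d (-2.22) and Ly6k (-1.39) lay within the range of the controls. Of the 150 controls whose brighter array was at least as bright as Ly6k on the Tc1 array, 20 were at least 2-fold lower, down to -2.32. Controls and genes carry different probes, so the shares are not a like comparison.

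**Figure D2:**
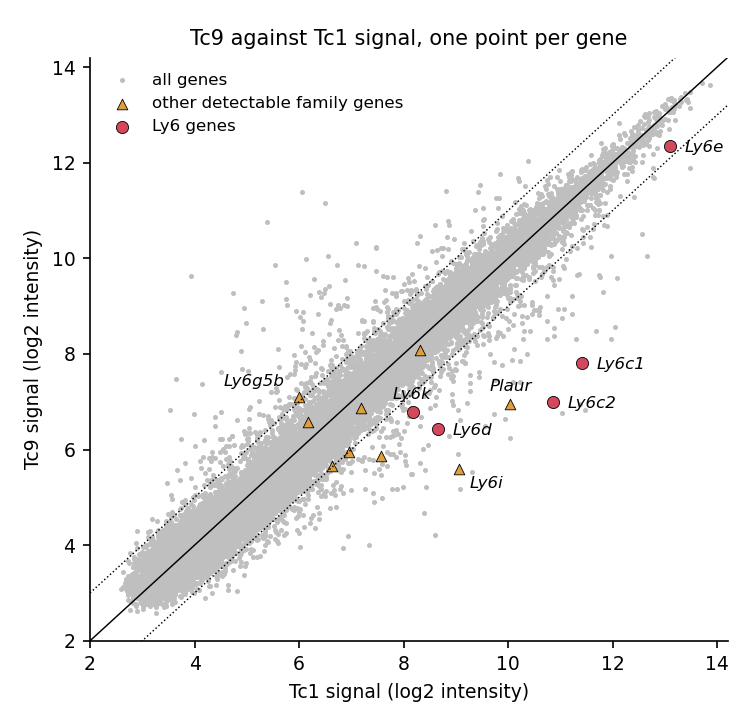
Tc9 signal against Tc1 signal (log2 intensity, 1 array each) for 19505 genes in grey, the 5 Ly6 genes (circles) and the 9 other detectable Ly6/uPAR family genes (triangles); the solid line marks equal signals and the dotted lines 2-fold. Ly6c1, Ly6c2, Ly6i and Plaur lie far below the lower dotted line, Ly6e lies between the lines, and Ly6g5b lies just above the upper one.

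The wider family differed less uniformly. Of 45 other Ly6/uPAR genes listed, 39 were measured and 30 of these were below the threshold on both arrays. Of the 9 detectable ones, 4 were lower in Tc9 cells by 2-fold or more in measured signal and 1 was higher, beside 2.79% and 2.62% of all detectable genes. With values below the threshold set to it, which keeps only what the bounds allow, 3 were 2-fold lower and 0 were 2-fold higher, against 2.22% and 2.01% of all detectable genes. The median of the 9 was -0.97 as measured and -0.33 with dim values at the threshold, and it was -0.23 as measured over all 39. As only 9 genes are bright enough to read, these counts describe the detectable part of the family.

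Ly6i, a Ly6C relative expressed in bone marrow and myeloid cells, had intensities of 535 (Tc1) and 48.1 (Tc9). Its Tc9 value was below the threshold, so it was at least 6.20-fold lower. Probe sequences were not used here, so the Ly6i signal may include RNA of Ly6c1 or Ly6c2. Plaur, the urokinase receptor, which directs cell-surface proteolysis, had 1050 and 124, an 8.45-fold lower signal. Lynx1, a membrane-bound modulator of nicotinic acetylcholine receptors, had 189 and 58.4, at least 2.19-fold lower.

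The remaining detectable family genes were closer to equal or dim. Slurp2, a secreted family member, had intensities of 125 (Tc1) and 61.8 (Tc9), at least 1.45-fold lower, and its measured difference of -1.02 was less than 2-fold after quantile normalization or median centring. Lypd2 had 98.6 and 50.5, at least 1.14-fold lower. Ly6g5b, a family gene of the major histocompatibility complex region, was the one on the other side, at 63.8 and 138, at least 1.60-fold higher in Tc9 cells. Lypd3 (72.3 and 95.3) was below the threshold on the Tc1 array and at least 1.10-fold higher in Tc9 cells. Spaca4, a sperm protein (146 and 116), and Ly6g6d (319 and 272) lay within 2-fold.

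Place on the chromosome was set beside these values. In the RefSeq order of genes (GRCm38.p6), the chromosome 15 cluster from Psca to Gpihbp1 held 23 genes of the listed family, of which 17 were measured and 9 detectable. All 9 detectable genes, the 5 members among them, had lower signals in Tc9 cells, as had 43.7% of all detectable genes. Lypd2, Slurp2, Lynx1 and Ly6i reached the threshold on the Tc1 array only, so they could only be lower. The members were chosen with their values known, so nothing is read from this shared direction. Of the 9, 7 were at least 2-fold lower in measured signal and 6 with dim values at the threshold. The shares over all detectable genes were 2.79% and 2.22%. Among negative controls that reached the threshold, 12.5% were also 2-fold lower in measured signal. The measured differences of Lynx1, Slurp2, Ly6d and Ly6k lay within the range of those controls. The median of the 9 genes was -1.70 as measured and -1.39 with dim values at the threshold. The family genes listed elsewhere in the genome had 27 measured and 5 detectable members, with a median of -0.23. Of these 5, Plaur was lower by 2-fold or more, and Ly6g5b was 2-fold higher in measured signal only. The members and much of the cluster were known to be low when this was drawn, so the contrast is a description.

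Ly6e, Ly6i, Ly6a, Ly6c1 and Ly6c2 followed each other in this order. With dim values at the threshold, the differences were -0.75 for Ly6e, -2.63 for Ly6i, -3.61 for Ly6c1 and -3.86 for Ly6c2, and the value of Ly6i is a bound. Nearer the Psca end of the cluster, Lypd2 (-0.19), Slurp2 (-0.54), Lynx1 (-1.13), Ly6d (-2.22) and Ly6k (-1.39) lay near each other, with the first 3 as bounds. Between these groups, Gml, Gml2, Cyp11b1, Cyp11b2 and Ly6m were below the threshold on both arrays, so nothing can be read from them. Of the genes in the cluster outside the family, 1 was detectable. This was Them6, a thioesterase superfamily gene, with intensities of 589 (Tc1) and 264 (Tc9), a difference of -1.16. Of the 16 genes flanking the cluster, 8 on each side, 6 were detectable and none was 2-fold different. Their differences lay between -0.59 (Gsdmd, the pore-forming gasdermin D) and 0.24 (Top1mt, a mitochondrial topoisomerase). Of all detectable genes, only 2.79% were 2-fold lower and 2.62% 2-fold higher, so these 6 genes cannot show a border of the differences.

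**Figure D3:**
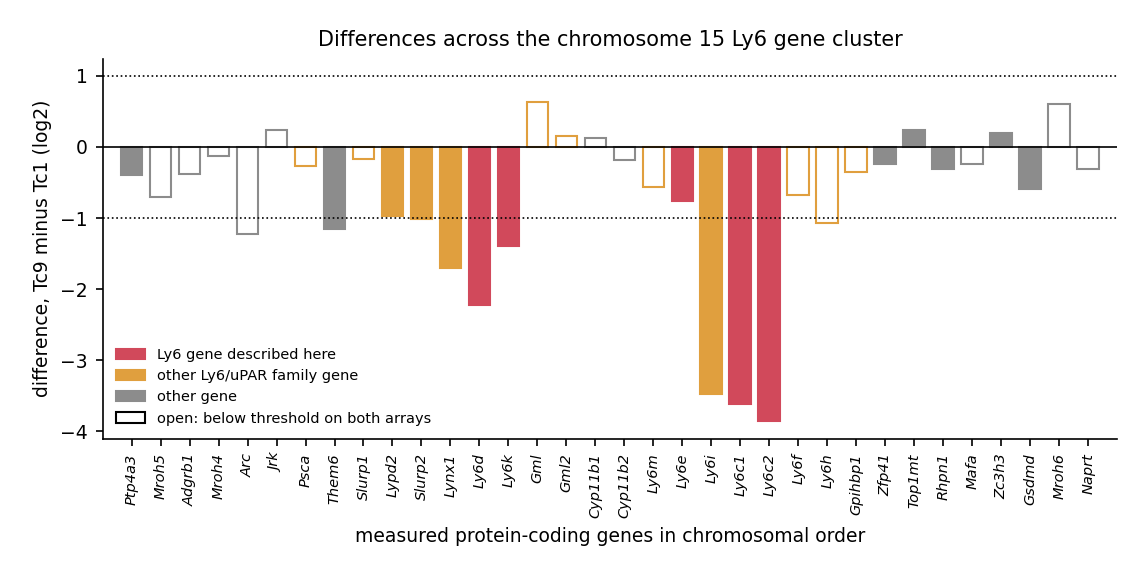
Difference in signal (log2, Tc9 minus Tc1, 1 array each) of the measured protein-coding genes in RefSeq order across the chromosome 15 Ly6 cluster and its flanks, as measured, with dotted lines at 2-fold and open bars for genes below the threshold on both arrays. Bars reach -3.61 for Ly6c1, -3.86 for Ly6c2, -2.22 for Ly6d and -1.39 for Ly6k. No filled bar of the flanks passes a dotted line, as is so for most detectable genes on these arrays. The bars of Lypd2, Slurp2, Lynx1 and Ly6i rest on Tc9 values below the threshold.

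The family's shared anchor was looked at through the genes that build it. Of 29 measured genes of GPI anchor synthesis and attachment, 27 were detectable, with a median of 0.07. None of these was 2-fold lower in Tc9 cells, while 1 was 2-fold higher in measured signal and 0 with dim values at the threshold. The measured shares of all detectable genes were 2.79% lower and 2.62% higher. With dim values at the threshold the shares were 2.22% and 2.01%. Pigz, a mannosyltransferase that adds a side branch to the anchor, was at intensities of 28.1 (Tc1) and 98.5 (Tc9), at least 1.14-fold higher. Piga, a subunit of the enzyme that starts the pathway, was at 211 and 294. Pigx was at 557 and 875, and Dpm3, a subunit of the dolichol-phosphate-mannose synthase, at 253 and 345. Apart from dim Pigz, the measured signals of the detectable anchor genes differed by less than 2-fold. Most detectable genes did so too, so nothing is read from this. Pgap1 on the Tc9 array and Pigw on the Tc1 array were below the threshold, so their folds are bounds.

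A list of other GPI-linked surface proteins and some relatives differed in both directions. Of its 17 measured genes, 13 were detectable, with a median of -0.18. The list takes in Ulbp1 (-0.79) and H2-Q10 (-0.18), whose mouse proteins are not GPI-linked. Of the 13, 3 were 2-fold lower in Tc9 cells in measured signal (2 with dim values at the threshold) and 2 were 2-fold higher either way. The measured shares of all detectable genes were 2.79% lower and 2.62% higher. With dim values at the threshold the shares were 2.22% and 2.01%. Nt5e (CD73), which makes adenosine outside the cell, was 11.3-fold higher in Tc9 cells, at 94.4 and 1067, opposite to the Ly6C genes. Bst1, an ectoenzyme also called CD157, was 3.54-fold lower, at 318 and 89.7. Bst2, the interferon-induced antiviral protein tetherin, was 3.21-fold lower, at 2614 and 814. Sema7a, a GPI-linked semaphorin, was at least 1.30-fold lower, at 112 and 37.9. Thy1, the classical GPI-linked T cell antigen, differed by 1.18-fold, with a higher signal in Tc9 cells. Izumo1r, the folate receptor relative also called FR4, was the other higher gene, with a difference of 1.42.

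Other surface markers of CD8 effector and memory cells were also mixed. Of 17 measured genes, 13 were detectable, with a median of -0.30. Of these, 3 were 2-fold lower in Tc9 cells in measured signal (2 with dim values at the threshold) and 1 was 2-fold higher either way. The measured shares of all detectable genes were 2.79% lower and 2.62% higher. With dim values at the threshold the shares were 2.22% and 2.01%. Cd44, an activation marker often read together with Ly6C, differed by 1.04-fold. Cd69, an early activation antigen, was 5.65-fold lower, at intensities of 4345 (Tc1) and 770 (Tc9), and Ccr7, a lymph node homing receptor, was 2.16-fold lower. Il15ra, the IL-15 receptor alpha chain, was at 146 and 55.3, at least 1.69-fold lower. Itgae, the CD103 integrin chain, was at least 20.1-fold higher, at 41.7 and 1734.

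Most of the listed interferon-induced genes had lower signals in Tc9 cells. Of 35 measured genes, 30 were detectable, of which 26 were lower by 2-fold or more in measured signal and 0 were higher, beside 2.79% and 2.62% of all detectable genes. With dim values at the threshold 22 were 2-fold lower, beside 2.22% of all detectable genes. The median difference of the 30 was -2.14 as measured and -1.62 with dim values at the threshold. Xaf1, a pro-apoptotic interferon-induced gene, was at 541 and 35.9, at least 6.27-fold lower, and Cxcl9, an interferon gamma-induced ligand of CXCR3, at 337 and 25.6, at least 3.91-fold lower. The GTPases Gbp2 (4019 and 316) and Iigp1 (978 and 99.0) were 12.7-fold and 9.88-fold lower. This list was known to be low in Tc9 cells from earlier readings of the same arrays and is not independent evidence of its direction.

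Genes of interferon signalling differed in both directions. All 16 measured genes were detectable, with a median of -0.39. Of these, 6 were 2-fold lower and 1 was 2-fold higher, also with dim values at the threshold. The measured shares of all detectable genes were 2.79% lower and 2.62% higher. With dim values at the threshold the shares were 2.22% and 2.01%. Irf7, which drives type I interferon genes, was at least 3.82-fold lower, at 330 and 64.3. Irf1, a factor induced by interferon gamma, was 3.99-fold lower, at 2384 and 598. Usp18, which removes ISG15 from proteins, was 3.71-fold lower, and Stat2, a part of the type I interferon-activated complex, 2.70-fold lower. The receptor chain Ifngr1 differed by -0.41, and Ifngr2, the partner chain, was the gene on the other side, with a difference of 1.29.

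**Figure D4:**
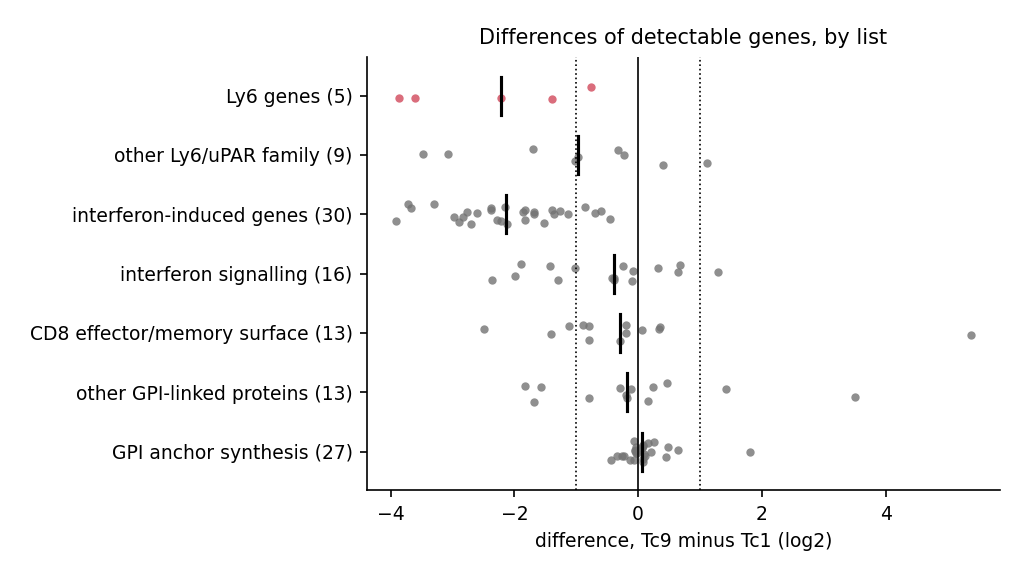
Measured difference in signal (log2, Tc9 minus Tc1, 1 array each) of the detectable genes in each list, 1 point per gene, with the list median as a vertical bar, dotted lines at 2-fold and the number of genes in brackets. The medians lie at -2.22 for the Ly6 genes, -2.14 for interferon-induced genes, -0.97 for the other family genes and 0.07 for GPI anchor synthesis.

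The genes whose pair of signals lay nearest to each Ly6 gene were found by the straight-line distance over the log2 signals of both arrays. The search covered detectable genes outside the members and left out predicted (Gm and Rik), microRNA and receptor segment genes. Signals of different probe sets are not levels on 1 scale, so nearness describes the arrays. Genes picked in this way must have signals and differences much like those of the member, so their likeness is no finding. Nearest to Ly6c1 were Gbp7 (distance 0.52), Ms4a4b (0.73) and Gbp2 (0.75), with differences of -2.98, -3.19 and -3.67. Nearest to Ly6c2 were Ms4a4c (0.29), Serpinb9 (0.53) and Selp (0.63), with -4.26, -4.44 and -4.64. Nearest to Ly6d were Phf11a (0.25), Bst1 (0.35) and Galnt3 (0.38), and nearest to Ly6k were Pla2g7 (0.07), Ifi204 (0.08) and Bend4 (0.13). Ly6e lay among bright genes that differed little, Tnfrsf9 (0.25), Fth1 (0.32) and Rpl28 (0.35), with differences of -0.55, -0.30 and -0.37.

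Other cell types also express these genes, so their markers were read beside them, and their part in the Ly6 values was not tested. Each sum below takes in every measured marker of its type, also those below the threshold. The cultured T cells may express some of these markers too, so a sum is not an amount of another cell type. Of 9 measured monocyte and macrophage markers, which bear on Ly6C, 4 were detectable, and the summed intensity of all 9 was 1636 (Tc1) and 1506 (Tc9). Csf1r, Adgre1, Cd14 and Ccr2 were below the threshold on both arrays, while the detectable ones were Lyz2, with a difference of 0.43, Ctss (-0.16), Fcgr1 (-0.44) and Fcgr3 (-0.87). The sums over 7 plasma cell markers were 7417 and 9119, with Xbp1 and Irf4 the brightest. Of the 7, 4 were detectable, and Jchain and Tnfrsf17 were below the threshold on both arrays. The detectable ones were Xbp1 (0.63), Irf4 (0.04), Sdc1 (-0.83) and Mzb1 (-1.81), the last below the threshold on the Tc9 array. Of 7 endothelial markers, Pecam1 alone was detectable, and Cdh5, Kdr and Tek were not, with sums of 417 and 397. Of 9 neutrophil markers, 1 was detectable, Elane (-0.64, below the threshold on the Tc9 array), and the sums over all 9 were 347 and 415.

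B cell markers, which bear on Ly6d, were present on both arrays. Of 10 measured, 9 were detectable, with a median difference of -0.42 over the detectable ones. The summed intensity of all 10 was 4619 (Tc1) and 3302 (Tc9). Cd79a, of the B cell receptor complex, was at log2 signals of 10.65 and 9.68, and Ms4a1, which encodes CD20, at 7.53 and 7.10. Of the 9, 8 had lower signals in Tc9 cells, beside 43.7% of all detectable genes, with Fcrla (-1.28) lowest and Vpreb3 (0.55) the exception. Blk and Fcrla reached the threshold on the Tc1 array only and Vpreb3 on the Tc9 array only, which fixed their directions. Of 7 plasmacytoid dendritic cell markers, 4 were detectable, with sums of 5599 and 2978, of which Bst2 (-1.68) and Irf8 (-1.30) were 2-fold lower and Tcf4 (0.17) and Pacsin1 (0.84) were not, and Siglech was below the threshold on both arrays. Of 7 dendritic cell markers 2 were detectable, Zbtb46 (-1.26, below the threshold on the Tc9 array) and H2-Aa (-0.42), with sums of 2436 and 1861. Of 6 NK cell markers 3 were detectable, Nkg7 (-1.23), Gzma (0.12) and Kit (0.24), and Ncr1 and Klrb1c were below the threshold on both arrays. The sums over all 6 were 4858 and 2707, with Nkg7 the brightest on both arrays. Of 4 CD4 T cell markers 3 were detectable, with sums of 5045 and 3960. Cd4 itself was at log2 signals of 9.33 and 8.74, and Ctla4, the brightest, at 12.01 and 11.63.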

How the data were processed

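Total RNA of 1 Tc1 and 1 Tc9 culture was measured on Affymetrix microarrays. The second sample was grouped as Tc9 from its title, although its source name says Tc1. Trizol was used to extract RNA and biotin to label it by a whole-transcript method, per the labels' protocols. The deposited table holds linear intensities. How the authors summarized probes, corrected background and normalized is not given in the sources used here. The medians over 28846 probe sets were 57.2 (Tc1) and 53.1 (Tc9), and the values were taken as normalized between arrays.

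Gene names came from the platform annotation, in which 19572 probe sets have 1 symbol, 9274 have none and 0 have several, giving 19505 genes. For a gene with several probe sets, the brighter was used. All 5 members measured have 1 probe set each. Values were log2 transformed without an offset. Detectable genes were those whose brighter array was at or above a log2 signal of 6.43, the median of all gene values, which 10147 genes (52.0%) did. With 1 array per group, no test was possible and the number of arrays limits the precision. A 2-fold rule describes these arrays, and its script was tested on simulated data.

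The members and gene lists were chosen with earlier results of these data known. The text names every member, each other detectable family gene, 6 identity genes, up to 4 detectable genes per list with the largest absolute differences, and the 3 genes nearest each member. The chromosomal neighbourhood, its flanking genes and the remaining list genes named were chosen after values were seen. Python 3.11.15, pandas 2.3.3 and Biopython 1.88 were used.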

Additional observations from a re-analysis of the deposited data

How the results depend on the processing

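The differences of the 5 Ly6 genes kept their direction and their side of 2-fold under the 3 alternatives that could move them, quantile normalization, median centring and an offset of 16. The other 4 (dim values at the threshold, another threshold, no threshold, the mean of probe sets) leave these genes' differences as they are. Each gene has 1 probe set and lies above the main threshold of 6.43 on both arrays. With another threshold, dim values were not set to it, so the differences stayed as measured. They ranged from -3.63 to -3.52 for Ly6c1, -3.86 to -3.70 for Ly6c2, -2.22 to -2.03 for Ly6d, -1.40 to -1.27 for Ly6k and -0.75 to -0.69 for Ly6e. Ly6e passed the 1.5-fold rule, so all 5 did. Threshold choice changed what can be said of folds: at the 95th percentile of the negative controls, a log2 signal of 7.16, the folds of Ly6c2, Ly6d and Ly6k become bounds of at least 13.0, 2.82 and 2.04, that of Plaur at least 7.35 and that of Ly6i at least 3.74. The 1 other family gene that was 2-fold higher in Tc9 cells, Ly6g5b, left the count (0) with dim values at the threshold, with the control threshold and with the offset. The count of GPI anchor genes higher was 0 with dim values at the threshold and with the control threshold, and 2 under the 1.5-fold rule. That rule gave 3 interferon signalling genes higher and 6 CD8 surface markers lower, and with no threshold 2 CD8 surface markers were higher. Over all detectable genes it gave 791 higher and 688 lower, against 266 and 283. Median centring moved the median of all genes to 0.07. No paired analysis was possible because each group has 1 array. How a replicate would change any value is not known from these arrays.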
